A study of Mus musculus with 6 samples.

Results

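The surface markers by which mesenchymal stem cells are recognised were followed in mouse bone marrow mesenchymal stem cells with RIOK3 knocked down and in their controls. These are 10 genes, picked by symbol: Eng, Nt5e, Thy1, Ly6a, Cd44, Pdgfra, Pdgfrb, Alcam, Mcam and Nes. All 10 were among the 22030 genes of the count table, each with a single row, and all 10 passed the filter on low counts that left 13067 genes for testing. Messenger RNA was sequenced in 6 libraries, 3 from RIOK3 knockdown cells, titled siRIOK3, and 3 from control cells, titled siNC with a wild-type genotype label. Titles with the prefix si, and a design text that names stable lentiviral lines in one place and a knockout in another, leave the agent unsettled. The control is called blank in that text. The stated interest was the role of RIOK3 in bone-forming differentiation. The sources used here give no mouse strain, age, passage, medium or harvest day. Nor do they say that replicates were separate cultures or lines, so a p-value here reflects the spread between libraries, which may be technical.

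No single surface protein defines a mesenchymal stem cell, so the cells are recognised by a combination. Human cells are commonly required to carry endoglin (CD105, gene Eng), ecto-5'-nucleotidase (CD73, Nt5e) and Thy-1 (CD90, Thy1) and to lack blood cell markers such as CD45. In mouse marrow, Sca-1 (Ly6a) and PDGF receptor alpha (Pdgfra) are widely used to sort stromal progenitors. CD44, a receptor for the matrix polysaccharide hyaluronan, and the adhesion proteins ALCAM (CD166) and MCAM (CD146) are used beside them. PDGF receptor beta marks pericytes and other stromal cells. Nestin is not a surface protein but an intermediate filament, and it marks perivascular stromal cells of mouse marrow.

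Riok3, the gene of the RIO-family kinase that was targeted, was read first as a check of the labels. The gene (ENSMUSG00000024404.8, chromosome 18) had 1034, 1048 and 1155 counts in knockdown replicates 1, 2 and 3, against 4266, 5365 and 4022 counts in control replicates 1, 2 and 3. Each knockdown library was below every control library, with a log2 fold change of −2.23 (SE 0.178, edgeR quasi-likelihood test, adjusted p = 1.27e-04). Totals ran between 28327612 and 30517261 counts in knockdown libraries and between 31089006 and 32569544 counts in control libraries. Control replicate 2 stood apart from the other control libraries. Its Spearman correlations with them over tested genes were 0.963 and 0.968, against 0.996 between the other control libraries and 0.996 to 0.997 between knockdown libraries. Fold changes of all genes also followed the GC content of their transcripts (Spearman 0.70 across 13043 genes, which are not independent replicates), so each marker is given below with its GC content. When the trend of each library on GC content was removed, the log2 fold change of Riok3 was −1.20 (adjusted p = 0.0105).

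The marker set did not move as a block. Pdgfrb, Eng and Ly6a rose in the knockdown libraries, Alcam, Pdgfra, Nt5e and Cd44 fell, and Mcam, Thy1 and Nes did not pass the test (edgeR, Benjamini-Hochberg adjusted p under 0.05 over all 13067 tested genes). That makes 7 of 10 markers called, where 48.0% of all tested genes were called. The 3 that rose stand beside 21.1% of all tested genes called higher, and the 4 that fell stand beside 26.8% called lower. The knockdown and control libraries did not overlap in CPM for 8 of the 10 markers, where the share over all tested genes was 62.1%. Of these 8, 4 lay above the control libraries (30.8% of all tested genes did) and 4 below them (31.3%). The median log2 fold change was −0.15 over the 10 markers and 0.01 over all tested genes. Among the called markers, Alcam and Pdgfrb changed by at least 2-fold, a size that 25.9% of all tested genes reached with a call. Mcam reached it (2.06-fold) without a call. In bulk RNA of this kind, fewer cells carrying a marker and less of its RNA per cell cannot be told apart.

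**Figure D1:**
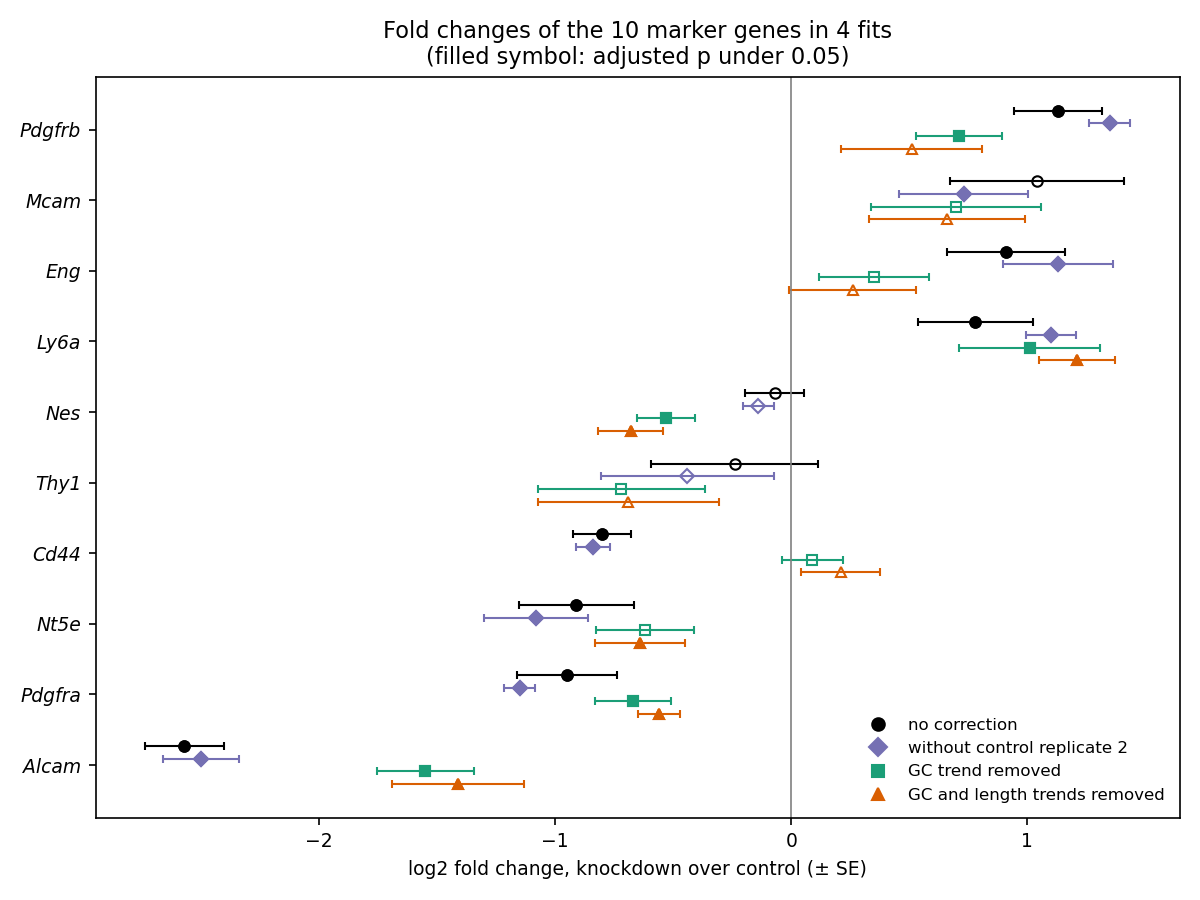
Log2 fold change of each of the 10 markers, knockdown over control, on the horizontal axis, in 4 fits: no correction, without control replicate 2, GC trend removed, and GC and length trends removed; bars are ± SE, and a filled symbol marks an adjusted p under 0.05. Alcam lies farthest to the left at −2.57 and Pdgfrb farthest to the right at 1.13 without the correction, and Cd44 moves to 0.09 with the GC trend removed.

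Promoter sequences were set beside the responses. RefSeq promoter sequences of 300 bases (GRCm38.p6, mostly upstream of the start and ending just past it) matched 7 of the 10 markers, and 3 are shown: Alcam, with the largest fall, Pdgfra, another marker that fell, and Eng, which rose. They lie at chr16:52453032-52453331 on the minus strand for Alcam, chr5:75152001-75152300 on the plus strand for Pdgfra and chr2:32646345-32646644 on the plus strand for Eng. Capitals mark the motifs searched on both strands, which were the GC box GGGCGG, the TATA box TATAAA and the CCAAT box.
Alcam: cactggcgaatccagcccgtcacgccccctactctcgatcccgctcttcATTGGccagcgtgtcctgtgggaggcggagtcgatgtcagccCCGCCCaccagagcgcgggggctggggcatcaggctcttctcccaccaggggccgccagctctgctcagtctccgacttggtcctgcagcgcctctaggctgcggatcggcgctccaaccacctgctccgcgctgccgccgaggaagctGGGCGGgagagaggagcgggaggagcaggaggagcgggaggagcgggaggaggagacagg
Pdgfra: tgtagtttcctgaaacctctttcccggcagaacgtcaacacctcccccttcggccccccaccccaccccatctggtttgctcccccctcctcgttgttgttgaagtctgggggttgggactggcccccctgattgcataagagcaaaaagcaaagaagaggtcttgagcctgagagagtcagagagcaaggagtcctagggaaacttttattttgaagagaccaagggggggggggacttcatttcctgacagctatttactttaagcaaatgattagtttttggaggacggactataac
Eng: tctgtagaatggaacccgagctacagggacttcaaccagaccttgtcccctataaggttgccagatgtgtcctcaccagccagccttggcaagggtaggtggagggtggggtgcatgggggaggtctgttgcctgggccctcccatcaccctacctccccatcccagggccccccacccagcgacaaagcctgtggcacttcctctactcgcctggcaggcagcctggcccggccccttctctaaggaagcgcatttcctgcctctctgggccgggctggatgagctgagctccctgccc
The Alcam promoter held 2 GC boxes and 1 CCAAT box in 69.7% GC, whereas the promoters of Pdgfra (51% GC) and Eng (63.3% GC) held none of these motifs. Alcam and Pdgfra, which both fell, thus shared no searched motif. Of the other markers, Mcam had 5 GC boxes, Nt5e 4, Nes 2 and Cd44 1, and none of the 7 promoters held TATAAA. Over 32851 promoters of the same length, 35.7% held GGGCGG, 13.6% TATAAA and 37.4% CCAAT. A match is a description of the letters and not a binding site.

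Levels of different genes were compared as FPKM, the authors' counts per gene length and library total. In the knockdown libraries the order of the mean levels was Ly6a, Cd44, Nes, Pdgfrb, Pdgfra, Eng, Mcam, Thy1, Alcam and Nt5e. It ran between 19.9 ± 0.718 FPKM for Ly6a and 0.207 ± 0.0306 FPKM for Nt5e (SD, n = 3). Neighbours in this order did not overlap between libraries down to Thy1, while Thy1, Alcam and Nt5e overlapped each with the next. In the control libraries Cd44 stood at the top with 16.5 ± 1.64 FPKM, clear of the rest. Ly6a (9.57 ± 3.25 FPKM), Pdgfra (8.37 ± 2.33 FPKM) and Nes (8.36 ± 0.890 FPKM) followed and overlapped, then came Pdgfrb (2.56 ± 0.575 FPKM) and Alcam (1.33 ± 0.0850 FPKM). Eng, Nt5e, Thy1 and Mcam were the lowest in control libraries and overlapped each with its neighbour, between 0.263 and 0.390 FPKM. Sca-1 RNA thus led the set in knockdown libraries and CD44 RNA led it in control libraries. This order carries no correction for GC content. With the GC trend removed from the counts, the log2 fold change was 0.09 for Cd44 and 1.01 for Ly6a. Ly6a held 35.8, 35.9 and 36.2% of the summed FPKM of the 10 markers in knockdown replicates 1, 2 and 3, against 15.2, 28.0 and 16.8% in control replicates 1, 2 and 3. For Cd44 those shares were 20.3, 20.2 and 21.4% in knockdown libraries, against 34.3, 32.5 and 36.5% in control libraries.

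The place of the markers among all tested genes shows how abundant each message was. The median tested gene had 3.43 FPKM in knockdown libraries and 3.24 FPKM in control libraries. Ly6a, Cd44, Nes, Pdgfrb and Pdgfra lay above that median in knockdown libraries. The same was true in control libraries except for Pdgfrb, whose percentile was 63.9 in knockdown and 44.8 in control libraries. Alcam had the percentile 12.2 in knockdown and 32.2 in control libraries. Eng, Mcam, Thy1 and Nt5e were low messages in both groups, at percentiles between 9.71 and 26.8 in knockdown libraries and between 11.0 and 15.0 in control libraries. Their values rest on 17 to 126 counts per knockdown library and 14 to 106 counts per control library.

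**Figure D2:**
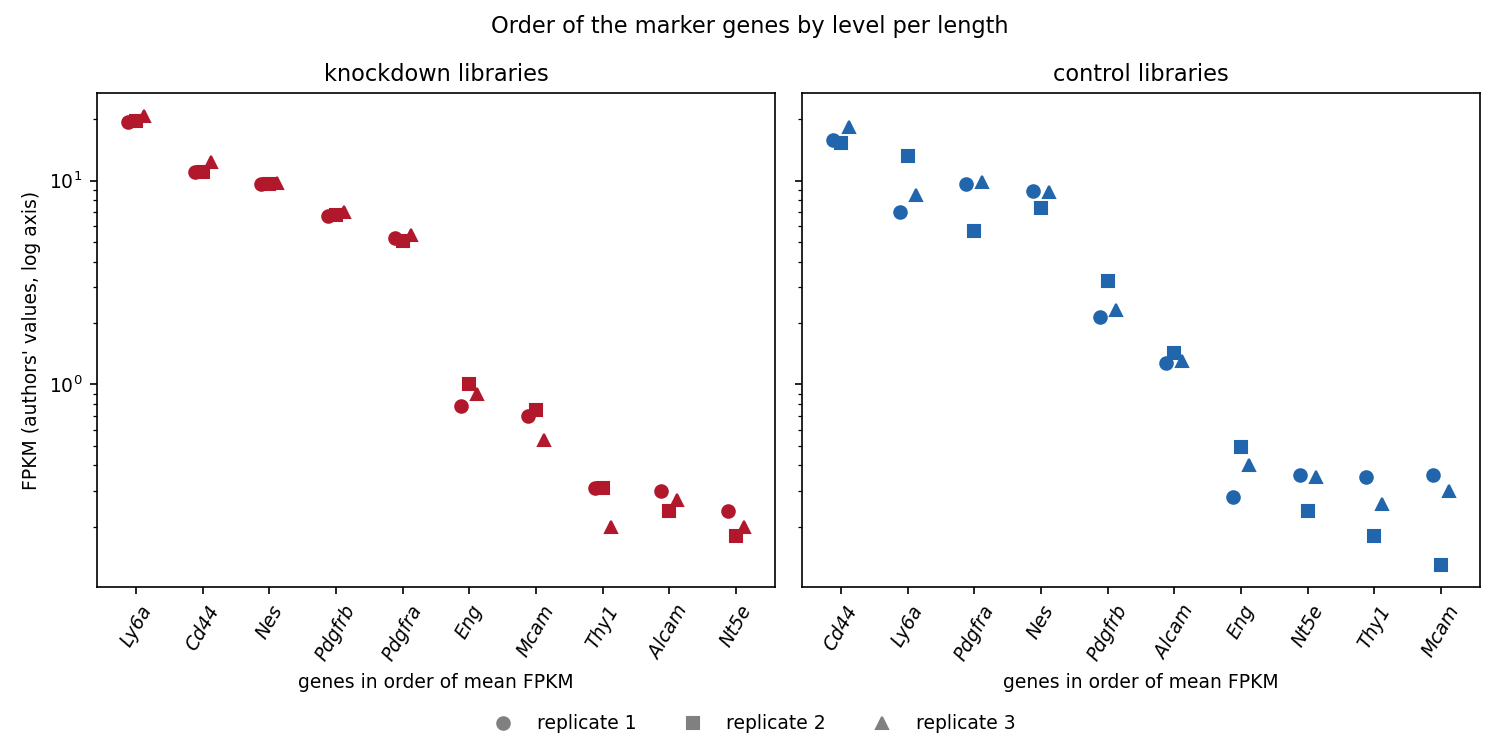
FPKM of the 10 markers on a log axis, a point per library, in knockdown libraries (left panel) and control libraries (right panel), each panel in the order of its own means. Ly6a leads in the knockdown libraries and Cd44 in the control libraries, and Eng, Mcam, Thy1 and Nt5e do not exceed 1 FPKM in any library.

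Of the trio of markers used to define human mesenchymal stem cells, Eng was called higher, Nt5e lower and Thy1 neither. With the GC trend removed none of them passed. Eng (ENSMUSG00000026814.17, chromosome 2), the co-receptor that passes TGF-beta family ligands to their signalling receptors, had 2.98, 3.79 and 3.38 CPM in knockdown replicates 1, 2 and 3, against 1.31, 2.30 and 1.79 CPM in control replicates 1, 2 and 3. Every knockdown library was above every control library, and Eng rose 1.88-fold (log2 fold change 0.91, SE 0.249, edgeR adjusted p = 0.0207). Its transcript has 57.4% GC, and genes of that GC decile had a median log2 fold change of 0.55. Removing the GC trend left Eng at a log2 fold change of 0.35, which did not pass the test (adjusted p = 0.284). The call also ended without knockdown replicate 2 (adjusted p = 0.0799), knockdown replicate 3 (0.0615), control replicate 1 (0.0547) or control replicate 3 (0.0621). In the annotation at hand (GENCODE M21, an earlier build than the authors'), Eng overlaps Fpgs on the opposite strand, and the strand setting of the counting is not known. Reads in the stretch that the pair shares cannot be told apart without it. Fpgs, which encodes folylpolyglutamate synthase, averaged 27.5 ± 1.36 CPM in knockdown and 20.1 ± 0.613 CPM in control libraries (SD, n = 3 each).

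Nt5e (ENSMUSG00000032420.9, chromosome 9), whose product makes adenosine from AMP outside the cell, had 1.93, 1.41 and 1.58 CPM in knockdown replicates 1, 2 and 3, against 3.56, 2.34 and 3.37 CPM in control replicates 1, 2 and 3. The groups did not overlap, and control replicate 2 was the control library nearest to the knockdown. Nt5e was 1.88-fold lower in the knockdown (log2 fold change −0.91, SE 0.243, edgeR adjusted p = 0.0184). Its transcript has 48.0% GC (decile median −0.28), and once the GC trend was removed the log2 fold change was −0.62 and did not pass (adjusted p = 0.0604). The call was also lost without knockdown replicate 2 (adjusted p = 0.0777), knockdown replicate 3 (0.0663), control replicate 1 (0.0613) or control replicate 3 (0.0605).

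Thy1 (ENSMUSG00000032011.6, chromosome 9), a GPI-anchored glycoprotein of the immunoglobulin superfamily, was a rare message in both groups. It had 28, 29 and 17 counts in knockdown replicates 1, 2 and 3, against 36, 17 and 26 counts in control replicates 1, 2 and 3. The groups overlapped, at 0.763 ± 0.187 CPM in knockdown and 0.899 ± 0.299 CPM in control libraries (SD, n = 3 each). The log2 fold change was −0.24 (SE 0.354, edgeR adjusted p = 0.610), with a 95% interval of −1.07 to 0.60. That interval includes the −0.91 of Nt5e, so a fall of that size is not excluded. With the GC trend removed the log2 fold change of Thy1 was −0.72 and did not pass (adjusted p = 0.163). Thy1 passed in 1 of its 20 other settings, as lower with the GC trend removed and control replicate 2 left out (log2 fold change −0.93, adjusted p = 0.0352). With library totals in place of TMM scaling its sign turned, at a log2 fold change of 0.01.

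Around CD73, the purine pathway was mixed. For this and the later lists, the shares over all tested genes were 21.1% called higher and 26.8% called lower. With the GC trend removed they were 16.3% higher and 15.2% lower. Whether any list exceeded these shares was not tested. Of 14 genes listed, 8 were tested, 3 rose and 2 fell. Enpp1, which makes AMP from ATP, fell to 1.63 ± 0.200 CPM in knockdown libraries, against 4.54 ± 0.418 CPM in control libraries. Adora2b, an adenosine receptor, had a log2 fold change of −1.07. Alpl, a phosphatase that also takes AMP and is a bone marker, rose (log2 fold change 1.31), as did Ada, which removes adenosine (0.61). After removal of the GC trend 2 rose and 2 fell, those that rose being Alpl (0.79) and the adenosine kinase gene Adk (1.01), while Ada did not pass (0.26, adjusted p = 0.259). Around endoglin, 20 of the 23 genes of TGF-beta and BMP signalling were tested, 5 rose and 7 fell. The ligand Bmp4 (log2 fold change −2.37) and the receptors Bmpr1a (−1.44) and Bmpr2 (−1.92) fell, and the inhibitory Smad6 rose (1.80). Without control replicate 2, 8 rose and 9 fell, in a fit that called 35.1% of all tested genes higher and 36.5% lower. After removal of the GC trend 7 rose and 4 fell. Bmp4 (−2.62) and Smad6 (1.12) still passed then, while Bmpr1a (0.26) and Bmpr2 (−0.12) did not.

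Sca-1 and CD44 were abundant and, without a correction for GC content, moved in opposite directions. With the GC trend removed, Cd44 had a log2 fold change of 0.09 and did not pass (adjusted p = 0.609). Ly6a (ENSMUSG00000075602.11, chromosome 15), the GPI-anchored protein Sca-1 of stem and progenitor cells, had 22.1, 22.1 and 23.3 CPM in knockdown replicates 1, 2 and 3, against 9.67, 18.4 and 11.3 CPM in control replicates 1, 2 and 3. All knockdown libraries were above all control libraries, and control replicate 2 was the nearest to them. Ly6a rose 1.71-fold (log2 fold change 0.78, SE 0.243, edgeR adjusted p = 0.0338), against a median of −0.28 for its GC decile (48.1% GC). Ly6a had a log2 fold change of 1.01 once that trend was removed (adjusted p = 0.0407). The call was lost when knockdown replicate 1 (adjusted p = 0.0877), 2 (0.0870) or 3 (0.0980) or control replicate 1 (0.0875) or 3 (0.107) was left out. Without control replicate 2 the log2 fold change was 1.10 (adjusted p = 8.49e-08). Ly6a has close paralogs in the Ly6 family, and how reads shared between them were counted is not known. Of these paralogs Ly6e, another GPI-anchored Ly6 protein, rose to 33.0 ± 2.38 CPM in knockdown libraries, against 14.7 ± 3.63 CPM in control libraries (log2 fold change 1.17).

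Of 15 genes of the Ly6 family and of the transamidase that attaches GPI anchors, 7 were tested, 4 rose and 3 did not pass. Besides Ly6e these were the transamidase subunits Pigs (log2 fold change 1.24) and Pigt (0.95) and the anchor remodelling gene Pgap2 (0.68). Pigs (0.73) and Ly6e (0.72) also passed with the GC trend removed. Without control replicate 2, 8 were tested, 6 rose and 1 fell, in a fit that called 71.6% of all tested genes, 35.1% as higher.

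Cd44 (ENSMUSG00000005087.18, chromosome 2) had 70.5, 69.9 and 77.5 CPM in knockdown replicates 1, 2 and 3, against 122, 120 and 138 CPM in control replicates 1, 2 and 3. The groups were far apart relative to their spread, and Cd44 was 1.75-fold lower in the knockdown (log2 fold change −0.80, SE 0.123, edgeR adjusted p = 0.00180). Leaving out any single library kept the call. Its transcript has 44.5% GC, in a decile whose median log2 fold change was −1.01. Once that trend was removed, the log2 fold change was 0.09 and did not pass (adjusted p = 0.609), so both call and direction of Cd44 rested on the treatment of that trend. Of 15 genes of the hyaluronan pathway around CD44, 12 were tested, 2 rose and 5 fell. Spp1, which encodes the CD44 ligand osteopontin, fell to 148 ± 4.97 CPM in knockdown libraries, against 572 ± 73.2 CPM in control libraries. The hyaluronan receptors Hmmr (log2 fold change −4.13) and Layn (−1.15) fell as well, and the hyaluronidase gene Hyal2 rose (0.96, and 0.36 and not past the test with the GC trend removed). After removal of the GC trend 1 rose and 3 fell, and Layn (−1.15), Hmmr (−2.49) and Spp1 were those that fell. The gene that rose was another hyaluronidase gene, Hyal1 (0.78, and 1.05 without the correction).

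**Figure D3:**
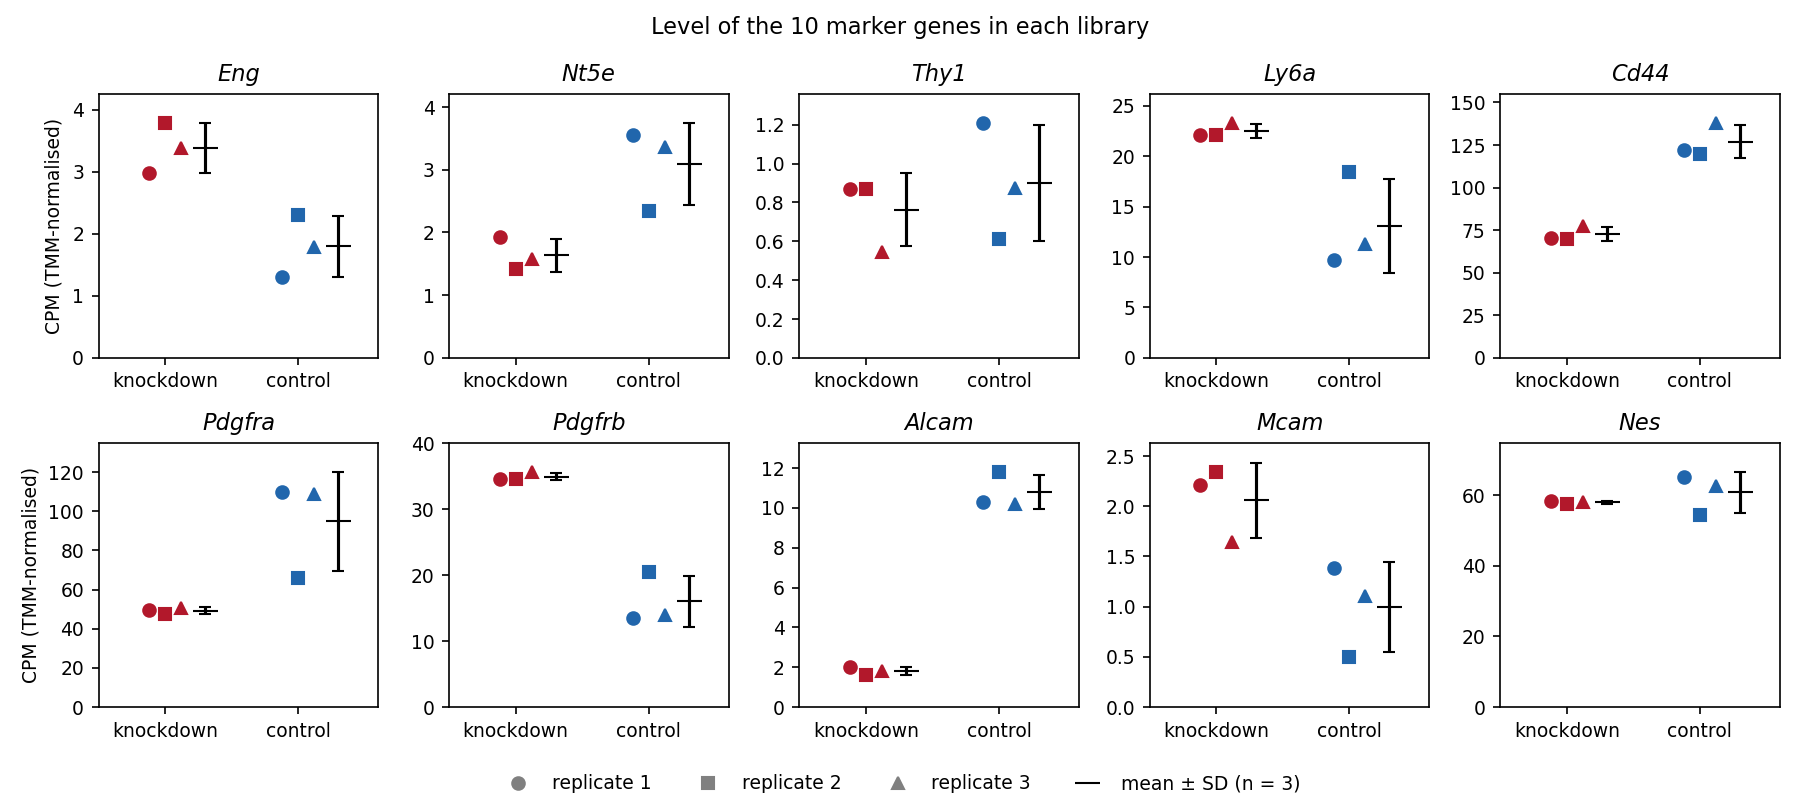
CPM of the 10 markers in each library, a panel per gene with its own axis starting at 0, knockdown left of control; points are libraries, with a marker shape per replicate, and the dash with its error bar is the mean ± SD over 3 libraries. The knockdown points lie above all control points for Eng, Ly6a, Pdgfrb and Mcam and below them for Alcam, Nt5e, Cd44 and Pdgfra.

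The PDGF receptors, paralogous receptor tyrosine kinases, went opposite ways. Pdgfra (ENSMUSG00000029231.16, chromosome 5) had 49.7, 47.3 and 50.5 CPM in knockdown replicates 1, 2 and 3, against 110, 65.7 and 109 CPM in control replicates 1, 2 and 3. The knockdown libraries were all below the control libraries, and control replicate 2 lay between the rest of its group and the knockdown. Pdgfra was 1.93-fold lower in the knockdown (log2 fold change −0.95, SE 0.210, edgeR adjusted p = 0.00921). Pdgfra (48.1% GC, decile median −0.28) still fell with the GC trend removed, with a log2 fold change of −0.67 (adjusted p = 0.0206). In the annotation at hand Pdgfra overlaps the gene models Gm42802 and Gm42803 on the opposite strand and Mir7025 on its own, which held between 0 and 17 counts in any library.

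Pdgfrb (ENSMUSG00000024620.12, chromosome 18) had 34.6, 34.6 and 35.6 CPM in knockdown replicates 1, 2 and 3, against 13.5, 20.4 and 14.0 CPM in control replicates 1, 2 and 3. All knockdown libraries were above all control libraries, and the rise was 2.19-fold (log2 fold change 1.13, SE 0.185, edgeR adjusted p = 0.00257). For its 54.9% GC the decile median was 0.43. After removal of the GC trend the log2 fold change was 0.71 (adjusted p = 0.0259), and with GC content and length removed it was 0.51 and did not pass (adjusted p = 0.217). Leaving out any single library kept the calls of both receptors.

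The balance of the receptors was read within each library, where scaling between libraries has no part. Pdgfrb over Pdgfra was 1.27, 1.34 and 1.29 in FPKM in knockdown replicates 1, 2 and 3, against 0.225, 0.567 and 0.236 in control replicates 1, 2 and 3. In FPKM, Pdgfrb was thus the higher receptor message in every knockdown library and Pdgfra in every control library. In CPM, which are not scaled by length, the ratio was 0.696, 0.732 and 0.704 in knockdown replicates 1, 2 and 3. It was 0.123, 0.310 and 0.129 in control replicates 1, 2 and 3, so Pdgfra was higher in every library. Which receptor led in the knockdown libraries thus depended on scaling by gene length. The mean log2 ratio of FPKM was 0.38 ± 0.0370 in knockdown and −1.69 ± 0.752 in control libraries (SD, n = 3 each), a difference of 2.07. In CPM the difference was 2.06. A trend on GC content does not drop out of this ratio, since the transcripts have 54.9% GC for Pdgfrb and 48.1% for Pdgfra. With that trend removed the log2 fold changes were 0.71 for Pdgfrb and −0.67 for Pdgfra, closer together than the 1.13 and −0.95 without the correction. For the ratio as measured, the exact two-sided permutation test gave p = 0.1, the smallest it can give for 3 libraries against 3. The summed FPKM of both receptors was 11.9, 11.8 and 12.4 in knockdown libraries, against 11.7, 8.90 and 12.2 in control libraries, and the groups overlapped. In TMM-scaled CPM the sum was 84.3, 82.0 and 86.1 in knockdown libraries, against 123, 86.1 and 123 in control libraries, where control replicate 2 alone was near the knockdown.

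Downstream of the receptors, 16 of the 17 listed genes of PDGF ligands and receptor signalling were tested, 4 rose and 5 fell. Over all tested genes 21.1% were called higher and 26.8% lower. The ligand gene Pdgfd fell to 1.39 ± 0.423 CPM in knockdown libraries, against 8.55 ± 1.50 CPM in control libraries. Rasa1, the Ras GTPase activator that binds PDGF receptors, had a log2 fold change of −3.86, the lipid kinase subunit gene Pik3ca −1.93 and the adaptor gene Nck1 −1.67. Under removal of the GC trend 2 rose and 3 fell. Those that rose were Nck1 and Sos1 (1.31), neither of them called higher without the correction. Src (0.23), Shc1 (0.26), Plcg1 (0.16) and Grb2 (0.20), which rose without the correction, did not pass. Pdgfd (−1.45) and Rasa1 (−2.26) still fell, Pik3ca (−0.22) did not pass, and Nck1 passed in the other direction (0.54).

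Alcam, a homophilic adhesion protein of the immunoglobulin superfamily, showed the largest change of the set in the edgeR fit. The gene (ENSMUSG00000022636.14, chromosome 16), whose GC-rich promoter is printed above, had 65, 54 and 56 counts in knockdown replicates 1, 2 and 3, against 308, 327 and 303 counts in control replicates 1, 2 and 3. The groups lay far apart and control replicate 2 was not the nearest to the knockdown here. The level was 1.82 ± 0.199 CPM in knockdown and 10.8 ± 0.858 CPM in control libraries (SD, n = 3 each), 5.92-fold lower (log2 fold change −2.57, SE 0.167, edgeR adjusted p = 5.14e-05). Low-GC genes fell in general, and the decile of Alcam (44.0% GC) had a median of −1.01. Alcam was still lower with the GC trend removed, with a log2 fold change of −1.55 (SE 0.206, adjusted p = 0.00235). It was called lower in all 23 other settings run, with log2 fold changes of −2.64 to −0.88.

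Mcam (ENSMUSG00000032135.16, chromosome 9), an adhesion protein of pericytes, endothelium and perivascular stroma, had 2.21, 2.34 and 1.64 CPM in knockdown replicates 1, 2 and 3, against 1.38, 0.503 and 1.11 CPM in control replicates 1, 2 and 3. The groups did not overlap, yet the gene missed the threshold (log2 fold change 1.04, SE 0.369, edgeR adjusted p = 0.0520, 95% interval 0.17 to 1.91). It had between 51 and 78 counts in knockdown libraries and between 14 and 41 in control libraries. It passed as higher in 8 of its 20 other settings. Among these it passed without control replicate 1 (log2 fold change 1.34, adjusted p = 0.0422), without control replicate 2 (0.73, 0.0251) and with DESeq2 (1.04, 0.0210). Mcam (53.7% GC) was at 0.70 with the GC trend removed, which did not pass (adjusted p = 0.181). Gm10687, on the opposite strand in the annotation at hand, held 0 or 1 counts.

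Nes (ENSMUSG00000004891.17, chromosome 3) was among the steadier markers. It had 58.3, 57.6 and 58.1 CPM in knockdown replicates 1, 2 and 3, against 65.3, 54.3 and 62.7 CPM in control replicates 1, 2 and 3. The knockdown libraries lay inside the range of the control libraries, with a log2 fold change of −0.07 (SE 0.124, edgeR adjusted p = 0.681, 95% interval −0.36 to 0.22). The sign of so small a value followed the scaling, at 0.18 with library totals and 0.13 with upper-quartile factors. With the GC trend removed (55.5% GC, decile median 0.43), Nes passed as lower, at a log2 fold change of −0.53 (adjusted p = 0.0174). It also passed with GC content and length removed (−0.68, adjusted p = 0.00763), with GC content taken from the longest transcript (−0.56, 0.0144) and with the GC trend removed and control replicate 2 left out (−0.61, 1.15e-07). It did not pass with GC content, length and adenine content removed (−0.16, 0.502) or with the replicate block and the GC trend removed (−0.53, 0.0537). Of the 11 listed intermediate filament genes and nestin partners, 8 were tested, 1 rose and 1 fell. Vim, the vimentin gene, fell to 1528 ± 149 CPM in knockdown libraries, against 2485 ± 707 CPM in control libraries, and Cdk5, a kinase whose regulation nestin takes part in, had a log2 fold change of 0.42. With the GC trend removed Cdk5 did not pass (0.09, adjusted p = 0.608), and the 2 called genes were Vim (−1.06) and Lmnb2 (−0.63), both lower. Without control replicate 2, 5 of these genes rose and 1 fell, in a fit that called 35.1% of all genes higher and 36.5% lower.

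The fold changes of the markers lay along the GC trend with some exceptions. Across the 10 markers, which share the libraries and are not independent, the correlation of log2 fold change with GC content was 0.72 (Pearson) and 0.61 (Spearman). The difference from the median of the GC decile was 1.06 for Ly6a and −1.56 for Alcam on the log2 scale. With the GC trend removed 5 of the 10 markers were called, where 31.6% of all genes so tested were, 16.3% higher and 15.2% lower. Ly6a and Pdgfrb rose and Alcam, Pdgfra and Nes fell in that fit, and the median log2 fold change was −0.22 over the markers and 0.03 over all genes. The part of GC content in each result was not tested beyond these fits.

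**Figure D4:**
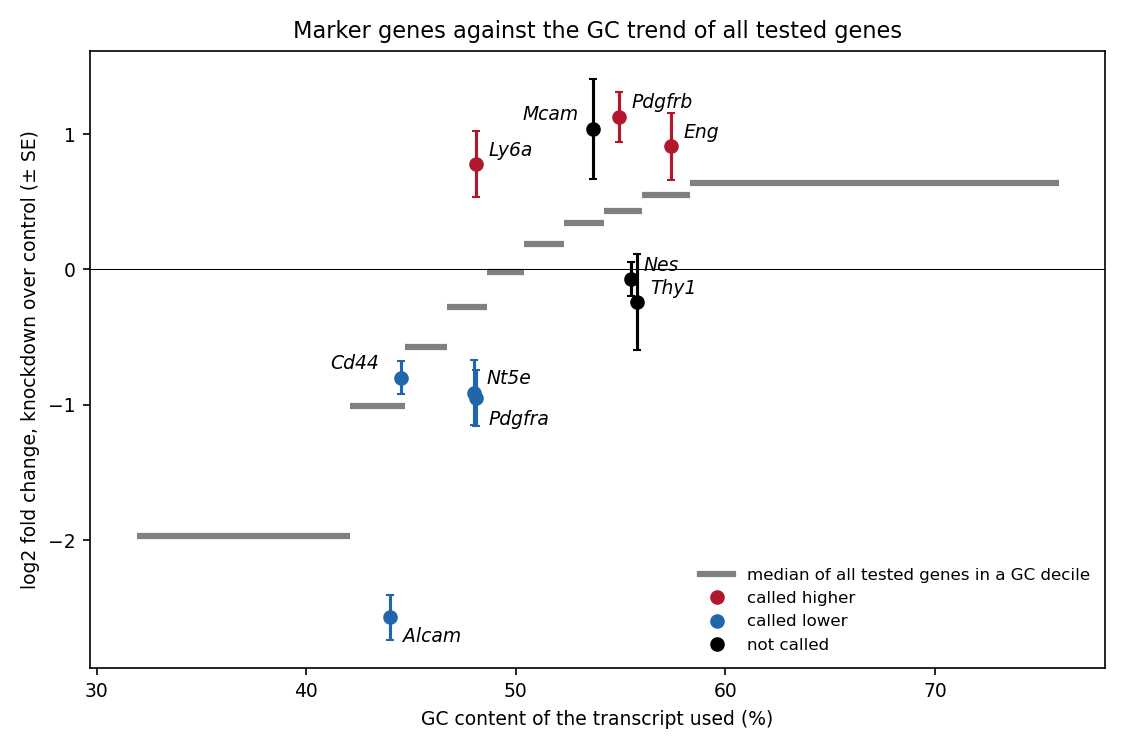
Log2 fold change of the 10 markers (points, ± SE) against the GC content of the transcript in percent; grey lines are medians of all tested genes in each GC decile. Ly6a at 48.1% and Pdgfrb at 54.9% GC lie above the medians, and Alcam at 44.0% GC lies below them.

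Control replicate 2 was the control library nearest to the knockdown mean for 6 of the 7 called markers, against 50.3% of all called genes. Its part in the results was measured by leaving it out. Then 8 of 10 markers were called, where 71.6% of all tested genes were. The same 7 kept their direction, with log2 fold changes between −2.50 for Alcam and 1.35 for Pdgfrb, and Mcam joined them as higher.

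Other surface markers and factors of marrow stroma also changed in both directions. Of 15 other mesenchymal surface markers, 12 were tested, 5 rose and 5 fell, where 21.1% of all tested genes were called higher and 26.8% lower. Vcam1, the adhesion protein of stromal cells that binds blood progenitors, fell to 20.9 ± 1.02 CPM in knockdown libraries, against 56.9 ± 3.55 CPM in control libraries. The integrin gene Itgav (log2 fold change −1.88) and Cd200 (−2.14) also fell, and the tetraspanin gene Cd81 rose (0.77). Under removal of the GC trend 3 rose and 3 fell, and these 4 kept their direction and call, as did Itga11 (1.55). Mme turned from lower (−1.45) to higher (1.01, adjusted p = 0.0325). Itgb1 (0.23), Itga5 (0.20), Cspg4 (0.66) and Anpep (1.15) lost their calls. Of 14 niche and mesenchymal factors, 12 were tested, 1 rose and 6 fell. Grem1, which encodes a BMP antagonist, fell to 6.62 ± 1.04 CPM in knockdown libraries, against 83.6 ± 25.2 CPM in control libraries. Kitl, the stem cell factor gene, had a log2 fold change of −4.82 and the transcription factor gene Snai2 of −1.90, while the homeobox gene Prrx2 rose (1.52). With the GC trend removed, 2 rose and 6 fell, but these were not all the same genes. Prrx1 turned from lower (−1.04) to higher (0.48), and Ebf1 lost its call as lower. Twist1 (−0.59) and Foxc1 (−0.43) passed as lower only in that fit.

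Markers of other cell types were read beside these values. Of the CD45 gene Ptprc there were 0 or 1 counts in knockdown libraries and 0 to 3 in control libraries. Of Itgam there were 0 counts in knockdown libraries and 2 to 7 in control libraries. Csf1r, as low and not tested, went the other way, with 9 to 13 counts in knockdown and 2 to 6 in control libraries. The haematopoietic list had 12 of 20 genes in the count table and 4 tested, of which 1 was lower and 3 did not pass, with sums of 65.9 to 71.0 CPM in knockdown and 48.4 to 76.5 CPM in control libraries. The gene that fell was Cd34 (18.6 ± 0.547 CPM in knockdown, 27.5 ± 5.95 CPM in control libraries). Cd68 had 48.3 ± 2.58 CPM in knockdown and 35.3 ± 9.66 CPM in control libraries. Every knockdown library was above every control library for Cd68, but it did not pass (log2 fold change 0.45, edgeR adjusted p = 0.124). Endothelial markers summed to 17.1 to 19.5 CPM in knockdown and 10.7 to 13.1 CPM in control libraries, with Vwf higher (log2 fold change 1.15, and 0.63 and not past the test with the GC trend removed) and Pecam1 and Cdh5 at no more than 14 counts in any library. Markers of pericytes and smooth muscle, cells that also carry Pdgfrb and Mcam, summed to 876 to 909 CPM in knockdown and 492 to 677 CPM in control libraries. Most of that sum was Acta2, at 847 ± 12.2 CPM in knockdown and 523 ± 83.3 CPM in control libraries. Of 5 tested, 2 rose, Notch3 (log2 fold change 2.42) and Acta2 (0.70), while Tagln (−0.31), Cnn1 (0.07) and Myh11 (0.07) did not pass. Rgs5 and Kcnj8 were not found among the 22030 genes with counts. The part of pericytes and smooth muscle cells in the values of Pdgfrb and Mcam was not tested.

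Markers of the lineages that these cells can form moved too. Adipocyte markers summed to 71.2 to 77.6 CPM in knockdown and 119 to 127 CPM in control libraries, with Cebpa higher (log2 fold change 1.52) and Lpl (−1.42) and Fabp4 (−2.11) lower among 4 tested. With the GC trend removed 2 adipocyte markers rose, Cebpa (0.80) and Pparg (0.78), while Lpl (−0.28, adjusted p = 0.129) and Fabp4 (−0.25, 0.684) did not pass. Both tested chondrocyte markers, Acan (−1.43) and Sox9 (−0.62), fell. Col2a1, too low to be tested, went the other way, with 9 to 19 counts in knockdown and 3 to 8 in control libraries. Among 4 tested osteoblast markers Col1a1 (1.39) and Alpl rose and Spp1 fell, and with the GC trend removed Runx2 (−0.56) fell as well, while Sp7, Bglap and Ibsp had no more than 2 counts in any library. Over the pathway and stromal lists the median log2 fold change ran between −0.54 for the hyaluronan pathway and 0.68 for the Ly6 and GPI anchor genes, against 0.01 for all tested genes. The plot of list counts gives the calls of every list.

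**Figure D5:**
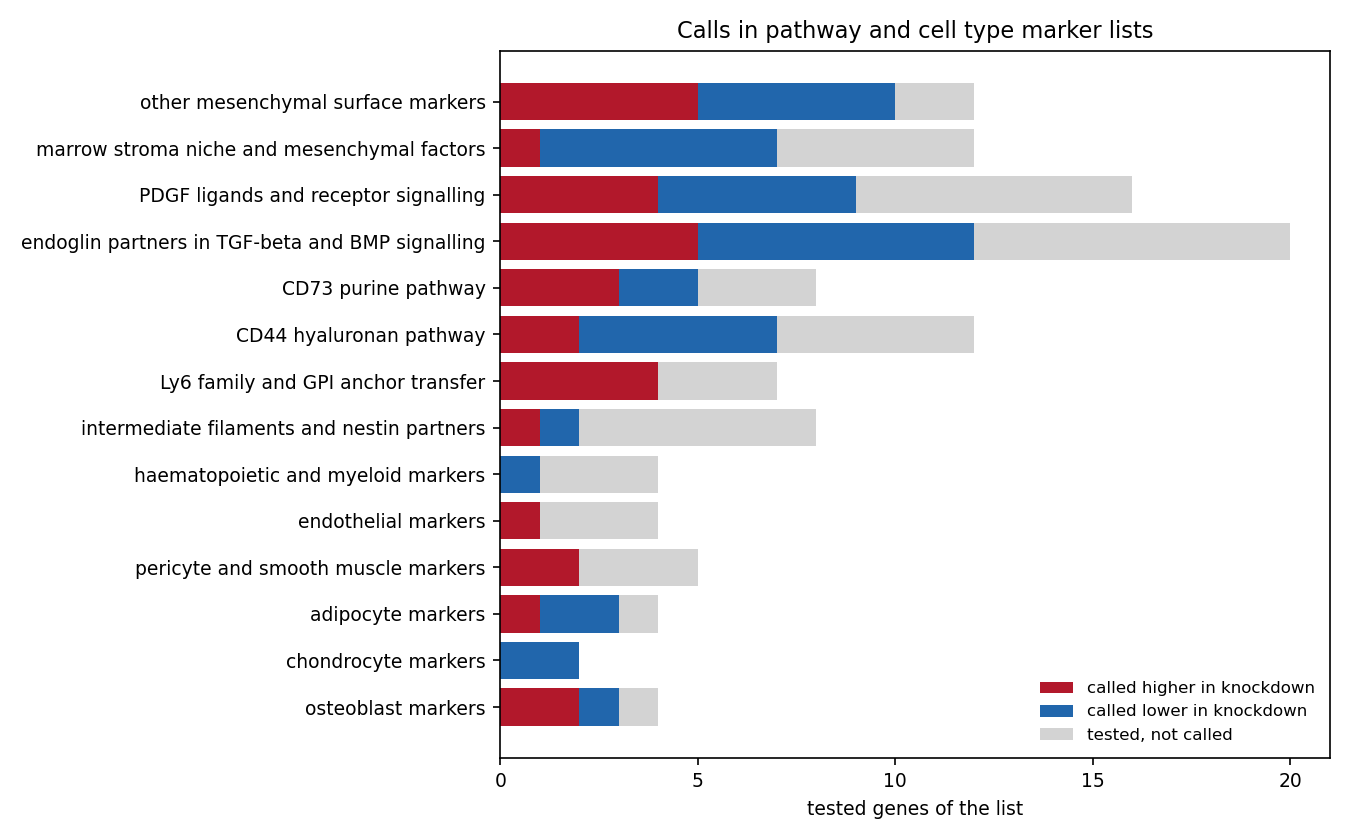
Number of tested genes in each pathway or cell type list (horizontal axis), divided into those called higher in the knockdown, called lower and not called, with no correction for GC content. Of the niche and mesenchymal factors 1 was higher and 6 were lower, while of the Ly6 and GPI anchor genes 4 were higher. Over all tested genes 21.1% were called higher and 26.8% lower.

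Over the 6 libraries, the genes most like Pdgfrb, the marker with the highest fold change in the fit of all libraries without a correction, were Pltp, Morn4 and S100a1. Their root mean square differences in centred log2 CPM were 0.0637, 0.0681 and 0.0699, over 9221 genes compared. The genes most like Alcam, the marker with the lowest fold change in that fit, were Vbp1 (0.107), Zc3h7a (0.117) and Tlr4 (0.118).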

How the data were processed

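The authors deposited raw counts per gene for 22030 genes and, for 21879 genes, FPKM values, which scale counts by library size and gene length. A stranded mRNA kit took 2 μg of RNA, per the labels' protocols, and products of 200 to 500 bp were enriched and paired reads of 150 bases were sequenced. The submitters' processing notes name HISAT2, MultiQC and the build GRCm39. The sources used here give no counter, strand setting or annotation.

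The test of the counts was that of edgeR 4.0.16 under R 4.3.3 (filterByExpr, TMM, robust quasi-likelihood test, two-sided, Benjamini-Hochberg over 13067 genes, threshold 0.05), after a self-test on simulated data. CPM are TMM-normalised, and a log2 fold change is knockdown over control. The biological coefficient of variation was 0.213, and replicate pairs differed beyond counting error. GC trends of libraries were fitted by loess (span 0.3) on 1 GENCODE M21 transcript a gene and entered as offsets. Alternatives used limma 3.58.1 and DESeq2 1.42.0.

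The markers and lists were chosen with earlier results of these data known. All markers, Riok3 and up to 4 called genes with the smallest p of each list are named, and the 3 genes nearest in pattern (mean of at least 5 CPM) to the extreme markers. Adk, Pparg, Runx2, Lmnb2, Tagln, Cnn1, Myh11 and Fpgs were named after their values were seen. So were Col2a1, Csf1r, Cd68, Prrx1, Ebf1, Twist1 and Foxc1. The same holds for Sos1, Src, Shc1, Plcg1, Grb2, Mme, Itgb1, Itga5, Itga11, Cspg4, Anpep and Hyal1.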

Additional observations from a re-analysis of the deposited data

How the results depend on the processing

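Of 23 other settings, 3 were chosen after seeing the data: GC content with adenine content and length removed, GC content removed without control replicate 2, and GC content of the longest transcript. All genes changed numbered 6266, with 9475 under limma-voom, 4118 with the GC trend removed, 3102 with the replicate block and that trend removed, and 4340 to 9592 with 1 library left out. The marker count was 7, with 3 after removal of GC content, adenine content and length, and 4 to 8 with 1 library left out. Without knockdown replicate 2 or 3 or control replicate 3 it was 4.

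The replicate number as a block gave 7 markers and 5615 genes and changed no marker's call, and with the GC trend removed it gave 4 markers. Same-numbered libraries did not deviate together (correlations −0.08, 0.04 and 0.05). With 3 libraries a group and control replicate 2 apart from its group, this check could miss a modest shared effect. It therefore does not settle whether the numbers mark pairs.

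Cd44 turned positive with removal of GC content (0.09), GC content and length (0.21), GC content with the block (0.10), GC content, adenine content and length (0.05) and GC content without control replicate 2 (0.16). Alcam kept its call in all 23 settings, Pdgfra in 22, Pdgfrb in 21, Ly6a in 18 and Cd44 in 17 of 23. Eng and Nt5e kept theirs in 11 of the 20 settings that tested them. Of the markers not called, Mcam passed in 8 and Thy1 in 1 of 20, and Nes in 4 of 23. With log2(FPKM + 1) and no filter, Pdgfra was not called (−0.55, adjusted p = 0.0949). Riok3 lost its call with GC content of the longest transcript (−0.62, adjusted p = 0.0975).

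The median log2 fold change of all genes was 0.01 with TMM, 0.21 with upper-quartile factors and 0.26 with library totals, and the called genes that were higher made up 44.0, 56.2 and 60.3%. On library totals 4 markers rose and 3 fell, Nt5e not passing (−0.67, adjusted p = 0.0554). Eng, Thy1, Nt5e and Mcam fell below the stricter filters, and their low counts limit what could be detected.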
